A study of Mus musculus with 8 samples.

Results

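A group of genes that encode Tudor domain proteins of the germ line was followed through the first wave of spermatogenesis, from RNA sequencing of C57BL/6J mouse testis. The 10 genes are Tdrd1, Tdrd3, Tdrd5, Tdrd6, Tdrd7, Tdrd9, Tdrd12, Tdrkh, Stk31 and Rnf17, picked by symbol, and all 10 were found among the 23983 genes of the deposited table. Total RNA came from testis pieces at 12, 16 and 24 days after birth (d12, d16 and d24) and from adult mice whose age in days the labels do not give, with 1 library per stage and no transgene named for any of them. How many animals stand behind a library is not stated. No value therefore has a spread between animals, no test between stages could be made, and a difference is described by its size. Levels are given in FPKM (fragments per kilobase of transcript and 1000000 mapped fragments), which allows genes of unequal length to be compared. Intervals in parentheses are exact 95% Poisson intervals on the fragments counted, and those of ratios are exact 95% Clopper-Pearson intervals. Both cover counting error only, and both were computed with the shortest curated transcript of a gene, which gives the lowest number of fragments and the widest interval.

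Tudor domains are pockets that hold methylated arginine or lysine. In male germ cells the Tudor proteins bind methylated arginines in the tails of PIWI proteins, the Argonaute family members that carry piRNAs, and so gather PIWI proteins, helicases and RNA into germ granules. Such granules lie between clustered mitochondria in spermatogonia and spermatocytes (intermitochondrial cement) and form a single perinuclear body, the chromatoid body, in round spermatids. The piRNA pathway keeps transposons silent and, from the pachytene stage of meiosis on, makes an abundant class of pachytene piRNAs whose precursors and processing factors are driven by the transcription factor A-MYB, encoded by Mybl1. Because whole testis was used, more cells of a type and more RNA per cell cannot be told apart.

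In RefSeq promoter windows of GRCm38.p6, 8 of the 10 genes were matched, with 14 annotated start sites, and Rnf17 and Tdrd6 had no entry. The 250 bases before each start were searched on both strands for AACNGNC, a core bound by MYB proteins, for its narrower form AACTGNC, for the E-box CACGTG, for GTTGCCA and for the cAMP response element TGACGTCA. Every AACTGNC is also an AACNGNC, and CACGTG reads the same on both strands. AACNGNC was present for 7 of 8 genes, all but Tdrd3, and in 11 of 14 windows, against 30.6% of all 27025 genes and 27.7% of all 32851 windows. The narrower AACTGNC was found for Stk31, Tdrd7 and Tdrkh, against 12.1% of genes. CACGTG was found for Stk31, Tdrd1 and Tdrd9, against 6.86% of genes, and in 5 of 14 windows against 6.02% of all windows. Neither GTTGCCA nor TGACGTCA was found in the 14 windows, against 3.66% and 1.55% of all windows. Genes with several starts had more bases searched, and windows of 1 gene can overlap. The sites shown for Stk31 and the E-box of Tdrd1 each lie in overlapping windows, so a single site counts for more than 1 window. The AACNGNC match shown for Tdrd1 lies before the last of its starts, in the window from 56830462 to 56830761. A selection of the AACNGNC and CACGTG matches is shown, as the motifs most often found among these genes. Each is printed on the gene's strand with 10 bases on either side, with the match in capitals, and a match of letters is not a bound site.
Tdrd1, AACNGNC on the opposite strand, chr19:56830580-56830606 (+): gaattgagaaGGCGGTTtggatggtca
Tdrd5, AACNGNC, chr1:156303479-156303505 (-): ggtctccgctAACCGTCacaccggccg
Tdrd7, AACTGNC, chr4:45965148-45965174 (+): gtgtaagaacAACTGTCcatttcatgg
Tdrd7, AACTGNC on the opposite strand, chr4:45965242-45965268 (+): tggggcctttGGCAGTTgatgtaggtc
Tdrd9, AACNGNC, chr12:111971542-111971568 (+): aggcttctggAACGGTCgttggcctgc
Tdrkh, AACTGNC, chr3:94413066-94413092 (+): cccgggctctAACTGGCtgtggacgtg
Stk31, AACTGNC, chr6:49395369-49395395 (+): ccctcctataAACTGACtgcacacagg
Stk31, E-box, chr6:49395474-49395499 (+): gccggccaccCACGTGaccagggctg
Tdrd1, E-box, chr19:56826188-56826213 (+): gggctgcgcgCACGTGggagtaaact
Tdrd9, E-box, chr12:111971454-111971479 (+): acgaggctccCACGTGcatgcagggc

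The depth behind the values was read from the table itself. For a transcript of 1 kb, 1 fragment was worth 0.0799 FPKM on d12, 0.0800 on d16, 0.0455 on d24 and 0.112 in adult testis, so the d24 library counted most finely and the adult library least. Over the 14604 genes with 1 curated transcript, the table held 4580401 fragments on d12, 4822504 on d16, 11875751 on d24 and 6044327 in adult testis. The members were well covered, with between 153 and 34220 fragments per value, except Tdrd6 at d12, which rested on 27.

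Tdrd6 and Tdrd7 encode large, multi-Tudor components of the chromatoid body. Tdrd6 (chromosome 17, 43615334 to 43631846, minus strand) had 0.328 FPKM at d12 (0.219 to 0.484), 28.4 at d16 (27.2 to 29.6), 240.4 at d24 (237.8 to 242.9) and 262 in adult testis (257 to 266). It went from the lowest of the 10 genes at d12 to the highest at d24 and in adult testis. The d16 level was 86.6 times that at d12 (58.5 to 129.8) and the d24 level 8.47 times that at d16 (8.12 to 8.83). Only Tdrd6 among the 10 lay under 2 FPKM at d12, the limit the study used for genes that start late. Tdrd7 (chromosome 4, 45965027 to 46034766, plus strand) had 8.52 FPKM on d12, 18.4 on d16, 76.2 on d24 and 70.2 in adult testis. Its larger step came after d16, with a d24 to d16 ratio of 4.14 (3.86 to 4.46), against a d16 to d12 ratio of 2.16 (1.91 to 2.44). Tdrd6 and Tdrd7 were the members with the highest log2 change between d16 and d24, at 3.08 and 2.05.

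Tdrd1 and Tdrd5 encode scaffold proteins of the intermitochondrial cement and the chromatoid body, Tdrd1 as a partner of the PIWI protein Piwil2. Tdrd1 (chromosome 19, 56826171 to 56870012, plus strand) had 15.4 FPKM at d12 (14.5 to 16.5), 70.1 at d16 (68.0 to 72.3), 105 at d24 (103 to 107) and 72.2 in adult testis (69.7 to 74.7). Tdrd5 (chromosome 1, 156255296 to 156304304, minus strand) had 8.95 FPKM at d12 (8.04 to 9.94), 66.4 at d16 (63.9 to 69.1), 109 at d24 (107 to 112) and 82.0 in adult testis (78.7 to 85.5). In the deposited values both were lowest at d12 and highest at d24, and in both the adult level lay between those at d16 and d24. For Tdrd1 the adult to d16 ratio was 1.03 (0.983 to 1.08), within counting error. With the libraries rescaled to the same FPKM sum, both were lower in adult testis than at d16, and Tdrd1 was highest at d16. The d16 to d12 ratio was 4.54 for Tdrd1 (4.23 to 4.88) and 7.42 for Tdrd5 (6.64 to 8.32). Within a library, the Tdrd5 level was 0.579 of the Tdrd1 level at d12 and 0.948 at d16, then 1.04 at d24 and 1.14 in adult testis, so the pair became nearly equal from d16 on. Such ratios within a library do not depend on how the libraries were scaled. The Tdrd6 to Tdrd1 ratio was 0.0212 on d12, 0.405 on d16, 2.28 on d24 and 3.62 in adult testis.

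Tdrd9 and Tdrd12 encode proteins that join a Tudor domain to a helicase domain and act in the piRNA silencing of transposons. Tdrd9 (chromosome 12, 111971488 to 112068854, plus strand) had 18.1 FPKM at d12 (17.1 to 19.2), 52.2 at d16 (50.4 to 54.0), 62.5 at d24 (61.0 to 64.0) and 57.9 in adult testis (55.6 to 60.2). Tdrd12 (chromosome 7, 35466941 to 35537784, minus strand) had 7.54 FPKM on d12, 24.2 on d16, 35.2 on d24 and 28.5 in adult testis. In both the d12 library was lowest and the other 3 lay within 1.5-fold of each other. Their profiles ran close together, with a Tdrd12 to Tdrd9 ratio of 0.416, 0.464, 0.563 and 0.492 from d12 to adult. Curated Tdrd12 transcripts range from 1621 to 6169 bases, so its FPKM depends on which of them the authors' program credited.

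Tdrkh encodes a Tudor and KH domain protein on the mitochondrial surface that holds PIWI proteins while piRNA ends are trimmed. Tdrkh (chromosome 3, 94413243 to 94434854, plus strand) had 10.7 FPKM at d12 (9.14 to 12.5), 16.9 at d16 (14.8 to 19.1), 18.2 at d24 (16.6 to 19.9) and 14.3 in adult testis (12.1 to 16.8). In the deposited values it spanned 1.70-fold between its highest and lowest library, against 798-fold for Tdrd6. The Tdrkh intervals at d16, d24 and in adult testis each overlapped the next. In the deposited values the lowest level was at d12, and its interval also overlapped the adult one. With the libraries rescaled to the same FPKM sum or upper quartile, adult lay below d12, with log2 changes of -0.79 and -0.24. The adult level was 1.34 times that at d12 (1.06 to 1.67) and 0.785 of that at d24 (0.651 to 0.944). Oaz3, a gene of elongating spermatids, lies on the opposite strand across the predicted 3′ end of Tdrkh, outside its curated exons, and had 0.673, 0.421, 126 and 1129 FPKM from d12 to adult. The libraries kept strand. Whether reads of Oaz3 were counted for Tdrkh was not tested.

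Stk31 encodes a Tudor protein with a kinase-like domain, and Rnf17 one with a RING finger and several Tudor domains, which forms granules of its own and is needed in spermatids. At d12 and d16 both had the highest levels of the 10, and their intervals overlapped. Stk31 (chromosome 6, 49395506 to 49469506, plus strand) had 37.8 FPKM at d12 (35.9 to 39.8), 80.4 at d16 (77.6 to 83.2), 72.9 at d24 (71.0 to 74.96) and 56.9 in adult testis (54.1 to 59.7). Rnf17 (chromosome 14, 56402650 to 56525032, plus strand) had 37.3 FPKM at d12 (35.8 to 38.8), 79.7 at d16 (77.5 to 81.9), 97.9 at d24 (96.1 to 99.7) and 107 in adult testis (104 to 110.1). After d16 the pair parted. The Stk31 to Rnf17 ratio was 1.01 at both d12 and d16, 0.745 at d24 and 0.531 in adult testis. In the deposited values Stk31 was the single member that was highest at d16.

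Tdrd3 differs in function from the rest, as a widely expressed Tudor protein that binds methylated arginines of histones and RNA polymerase and works with the topoisomerase Top3b. Tdrd3 (chromosome 14, 87416178 to 87545508, plus strand) had 13.5 FPKM at d12 (12.3 to 14.8), 20.1 at d16 (18.6 to 21.7), 36.5 at d24 (34.9 to 38.0) and 32.8 in adult testis (30.5 to 35.1). Its level was lowest at d12 and highest at d24, with ratios of 1.495 (1.33 to 1.68) and 1.81 (1.66 to 1.98) for the first and the second step. Of the partners of Tdrd3, Top3b had 11.01, 15.2, 22.0 and 20.7 FPKM, which is the same order of libraries as for Tdrd3. Fmr1, the fragile X gene, was lower in each later library, with 61.8, 38.9, 20.05 and 15.0 FPKM, while its paralog Fxr1 had 140.1, 195, 435 and 881. Fxr2 stayed between 34.8 and 43.4 FPKM.

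**Figure D1:**
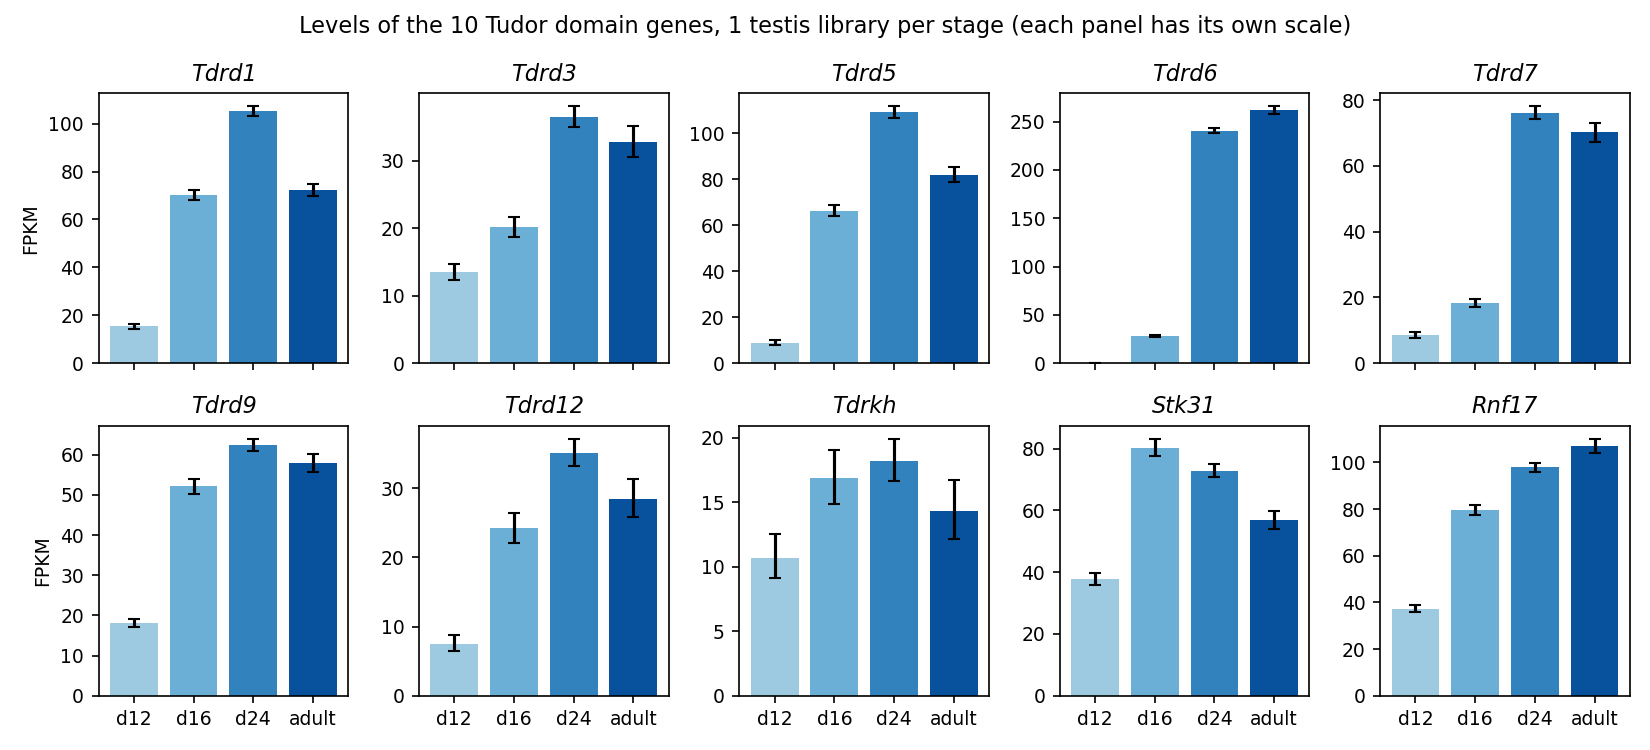
Level of each of the 10 Tudor domain genes in FPKM (vertical axis, own scale in each panel) in the d12, d16, d24 and adult testis libraries (horizontal axis). Each bar is 1 library and each error bar an exact 95% Poisson interval for counting error only. In the deposited values all 10 genes are lowest at d12, where the Tdrd6 bar of 0.328 FPKM is too small to see. Of them 7 are highest at d24, beside 18.0% of the 13901 genes averaging at least 1 FPKM. The share of those genes lowest at d12 is not given here. With the libraries rescaled to the same FPKM sum or upper quartile, Stk31 and Tdrkh are lower in adult testis than at d12.

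The order of the levels changed between stages. At d12 the order ran from Stk31 and Rnf17 through Tdrd9, Tdrd1, Tdrd3, Tdrkh, Tdrd5, Tdrd7 and Tdrd12 to Tdrd6, and in 6 of the 9 neighbouring pairs the intervals overlapped. At d16 Tdrd1 and Tdrd5, with overlapping intervals, followed Stk31 and Rnf17, and Tdrkh was lowest with 16.9 FPKM. At d24 the order was Tdrd6, Tdrd5, Tdrd1, Rnf17, Tdrd7, Stk31, Tdrd9, Tdrd3, Tdrd12 and Tdrkh, and the intervals overlapped in the pairs Tdrd5 and Tdrd1, Tdrd7 and Stk31, and Tdrd3 and Tdrd12. Overlap of intervals is a description here, since the ratio within a pair was not tested. In adult testis Rnf17 stood behind Tdrd6, and the pairs with overlapping intervals were Tdrd1 and Tdrd7, Tdrd9 and Stk31, and Tdrd3 and Tdrd12. The levels of the 10 genes summed to 158 FPKM on d12, 457 on d16, 854 on d24 and 783 in adult testis, which was 0.0558%, 0.148%, 0.181% and 0.119% of all FPKM in each library. Stk31 and Rnf17 made up 23.9% and 23.6% of that sum at d12, where Tdrd6 made up 0.207%. In adult testis Tdrd6 made up 33.4%, Rnf17 13.7% and Stk31 7.26%.

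**Figure D2:**
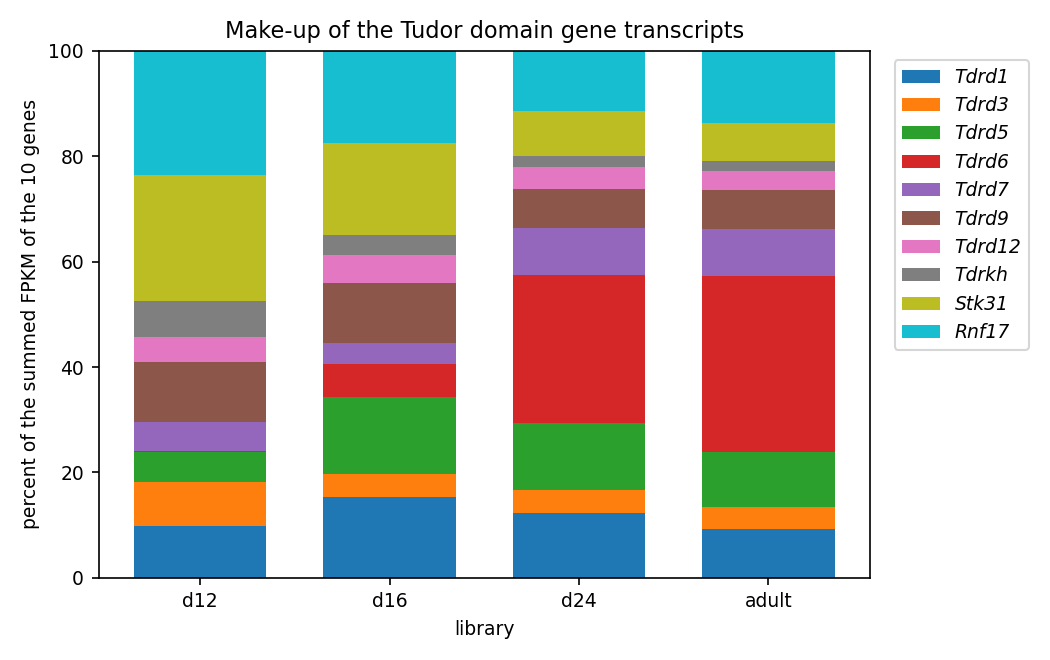
Share of each gene in the summed FPKM of the 10 Tudor domain genes (vertical axis, percent) in each testis library (horizontal axis), 1 stacked bar per library. Stk31 and Rnf17 give the largest shares at d12 (23.9% and 23.6%), and Tdrd6 grows from 0.207% at d12 to 33.4% in adult testis.

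The step from d12 to d16 was the one in which most members were higher. Changes were taken on log2(FPKM + 0.1), which understates the change of low genes, and a change of at least 2-fold was counted, over the 13901 genes whose 4 values averaged 1 FPKM or more, a filter that all 10 members passed. At d16, 8 of the 10 members were higher than at d12 by at least 2-fold, against 12.6% of all genes, and none was lower, against 3.67%. The median log2 change was 1.31 for the members and 0 for all genes. Tdrd6 had the highest change with 6.06, which was 4.47 with a pseudocount of 1 FPKM, followed by Tdrd5 with 2.88, Tdrd1 with 2.18, Tdrd12 with 1.67 and Tdrd9 with 1.52. Tdrd7 with 1.101, Rnf17 with 1.09 and Stk31 with 1.09 lay just past the threshold, and Tdrkh with 0.65 and Tdrd3 with 0.58 short of it. With the libraries rescaled to the same FPKM sum, or to the same upper quartile, those 3 near the threshold dropped below it and 5 members were left, beside 11.6% and 11.4% of all genes.

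From d16 to d24 the members parted from each other. Tdrd6 and Tdrd7, 2 of 10, were higher by at least 2-fold, a share near the 27.5% of all genes, and none was lower, against 8.45%. Tdrd3, Tdrd5, Tdrd1 and Tdrd12 had log2 changes of 0.85, 0.72, 0.58 and 0.54, Rnf17 and Tdrd9 of 0.30 and 0.26, Tdrkh of 0.11 and Stk31 of -0.14. The median was 0.56 for the members and 0.13 for all genes. Rescaling to the same FPKM sum moved the median of all genes to -0.48 and the split of all genes from 27.5% higher and 8.45% lower to 19.3% and 30.2%. The signs of Tdrd1, Tdrd9, Tdrd12, Tdrkh and Rnf17 turned negative under it, while Tdrd6 and Tdrd7 stayed past 2-fold. Relative to the median of all genes, 8 of the 10 members lay above it for this step.

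Between d24 and adult testis no member changed by 2-fold in either direction, against 11.4% of all genes higher and 2.2% lower. The log2 changes ran from -0.54 for Tdrd1 and -0.41 for Tdrd5 to 0.12 for Tdrd6 and 0.13 for Rnf17, and 8 of the 10 were lower in adult testis. Their median was -0.23, and that of all genes -0.02. The share of all genes lower by any amount is not given here, for the deposited values or the rescalings. Counts of members lower by any amount therefore cannot be set against it. With the same FPKM sum or upper quartile in each library, all 10 were lower, and under the same sum Tdrd1, 1 of 10, passed 2-fold down, beside 9.83% of all genes. Tdrd6 and Rnf17 were the 2 members above the median of all genes, which moved to -0.49 under the same sum and to -0.25 under the same upper quartile.

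Taken from d12 directly to adult testis, 8 of the 10 members were higher by at least 2-fold, against 35.7% of all genes, and none was lower, against 23.1%. This comparison shares its libraries with the steps above. Stk31 and Tdrkh were the members short of 2-fold, with log2 changes of 0.59 and 0.42. Tdrd6, with 27 fragments at d12, stood at 9.26, which was 7.63 with a pseudocount of 1 FPKM. Tdrd5 stood at 3.18, Tdrd7 at 3.03, Tdrd1 at 2.22, Tdrd12 at 1.91, Tdrd9 at 1.67, Rnf17 at 1.52 and Tdrd3 at 1.28. The median was 1.79 for the members and 0.20 for all genes. Under the same FPKM sum, 4 members were past 2-fold (Tdrd1, Tdrd5, Tdrd6 and Tdrd7) and the split of all genes became 23.2% higher and 49.8% lower. Under the same upper quartile, 6 members were past it and the split was 27.8% and 37.9%. In both, the signs of Stk31 and Tdrkh turned negative, and the median of all genes moved to -0.995 and -0.45. All 10 members lay above the median of all genes.

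**Figure D3:**
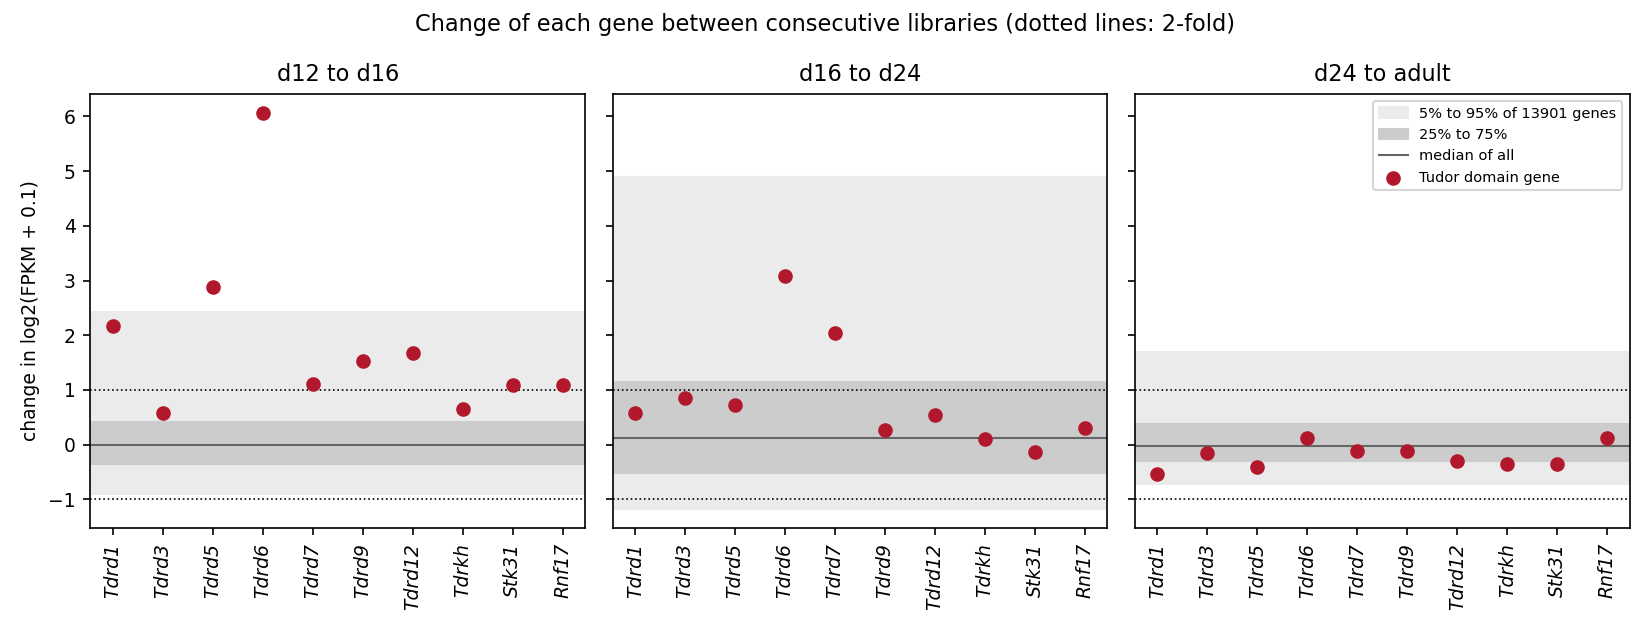
Change in log2(FPKM + 0.1) of each Tudor domain gene (red points, named on the horizontal axis) between consecutive libraries, 1 panel per step, with the middle 50% and 90% of 13901 genes as dark and light grey bands, their median as a line and 2-fold as dotted lines. At d16, 8 of the 10 points lie above the upper dotted line, at d24 Tdrd6 and Tdrd7 do, and in adult testis none lies outside the dotted lines.

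The highest library was d24 for 7 of the 10 members (Tdrd1, Tdrd3, Tdrd5, Tdrd7, Tdrd9, Tdrd12 and Tdrkh), adult for Tdrd6 and Rnf17, and d16 for Stk31. Over all 13901 genes the shares were 35.3% for d12, 10.4% for d16, 18.0% for d24 and 36.3% for adult. With the libraries rescaled to the same FPKM sum, Tdrd3, Tdrd5, Tdrd6 and Tdrd7 were highest at d24 and the other 6 at d16. Under the same upper quartile, Tdrd9, Tdrkh and Stk31 were highest at d16 and the other 7 at d24. The shares of all genes above are for the deposited values. Those under the rescalings are not given here, so the rescaled counts cannot be set against them. By distance between centred log2 profiles over the 4 libraries, Tdrd12 and Tdrd9 lay closest to the median profile of the members, at 0.128 and 0.194 log2 units, and Tdrd6 farthest at 5.96. The 5 other genes nearest to that median profile were Ccp110 at 0.0733, E130317F20Rik at 0.0829, 1700028K03Rik at 0.123, Bbs1 at 0.146 and Urb2 at 0.157. Ccp110, which encodes a centriole protein, had 27.6, 76.7, 112 and 96.98 FPKM from d12 to adult.

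The partner genes of the pathway were also mostly higher at d16. Of 19 genes for piRNA and germ granule proteins without a Tudor domain, 18 were in the table and 17 passed the filter, Piwil4 being below it. At d16, 10 of the 17 were at least 2-fold above d12, beside 12.6% of all genes, and none was 2-fold below, beside 3.67%. Tex15 and Btbd18 were lower by less than that. The partners had a median log2 change of 1.13 beside 1.31 for the Tudor genes. Among them Piwil1, the PIWI protein of pachytene piRNAs, had 2.90, 90.02, 193 and 158 FPKM. Piwil2, which binds Tdrd1, had 24.3, 60.6, 61.3 and 49.5, and the helicase Ddx4, a germ granule core protein, had 84.7, 219, 379.8 and 396. Mybl1 itself had 17.4, 37.6, 54.2 and 52.5 FPKM, a d16 to d12 ratio of 2.16. Tdrd1 relative to Ddx4 was 0.182 on d12, 0.320 on d16, 0.277 on d24 and 0.182 in adult testis, whereas Tdrd6 relative to Ddx4 was 0.00387, 0.129, 0.633 and 0.661. Against Piwil1, Tdrd1 stood at 5.33 at d12 and 0.779 at d16, and Tdrd6 at 0.113 and 0.315. From d12 to adult testis, 10 of the 17 were at least 2-fold higher, beside 35.7% of all genes. Fkbp6, Tex15, Btbd18, Pnldc1 and Mov10l1 were lower in adult testis than at d12, with log2 changes of -0.85, -0.80, -1.42, -0.57 and -0.06.

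After d16 fewer of the partners differed by 2-fold. From d16 to d24, 6 of 17 were higher (Piwil1, Mael, Pld6, Gtsf1, Henmt1 and Ddx25) beside 27.5% of all genes, and Btbd18 was lower, beside 8.45%, and from d24 to adult none passed 2-fold, beside 11.4% of all genes higher and 2.2% lower. Among the 9 genes of the chromatoid body and spermatid granules, of which 4 are also in the list above, 5 were higher at d16, 6 at d24 and, in the adult library, 3, beside 12.6%, 27.5% and 11.4% of all genes. Tsks, Tssk1 and Tssk2, kinase genes and a kinase substrate of late spermatids, were those higher in adult testis. Tsks went from 0.131 FPKM at d16 to 31.1 at d24 and 146 in adult testis. Tdrd6 and Tdrd7 had 28.4 and 18.4 FPKM already at d16, and their adult levels were within 1.5-fold of those at d24.

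Tudor domain genes outside this group were compared in the same way. Of 19 such genes 18 were in the table and 17 passed the filter. Phf1, a subunit linked to Polycomb complexes, was the 1 of 17 that was at least 2-fold higher at d16, beside 12.6% of all genes, and the median log2 change was 0.04. Expressed as percent of each gene's highest library, the median at d12 was 90.7% for these 17 genes, 25.2% for the 10 members and 32.2% for the 17 partners. At d24 it was 76.9%, 100% and 90.3%. Akap1, an anchoring protein of mitochondria with a Tudor domain, had 7.85, 5.96, 48.0 and 258 FPKM, and the SAGA subunit Ccdc101 had 7.05, 7.27, 33.7 and 105, so both were highest in adult testis rather than at d24. Snd1, a broadly expressed Tudor nuclease, had 23.4, 15.97, 9.63 and 7.60.

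**Figure D4:**
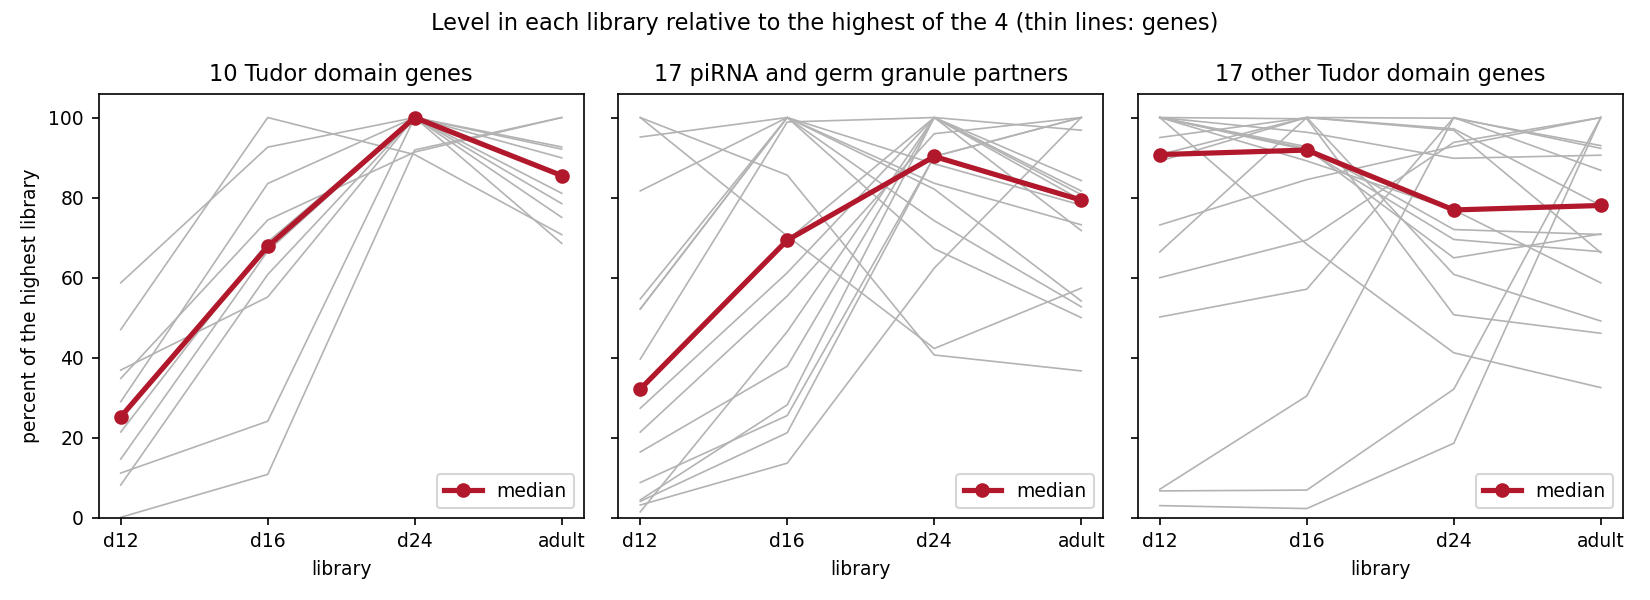
Level of each gene as percent of its highest library (vertical axis) in the d12, d16, d24 and adult libraries (horizontal axis), for the 10 Tudor domain genes, 17 partner genes and 17 other Tudor domain genes. Grey lines are single genes and the red line their median, which is 25.2%, 32.2% and 90.7% at d12.

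The make-up of the testis changed over the same libraries, and its part in the values above was not tested. Markers of pachytene spermatocytes summed to 57.2, 889, 4126 and 5073 FPKM from d12 to adult, with Ldhc the most abundant from d16 on, and all 6 were at least 2-fold higher at d16 than at d12, beside 12.6% of all genes. Early meiotic markers summed to 581, 929, 589 and 580.2 FPKM, mostly Sycp3, and without Sycp3 to 167, 134, 83.4 and 72.7, with Stra8, Prdm9 and Dmc1 lower in each later library. Spo11 was higher in each later library (3.76, 8.42, 17.6 and 23.5 FPKM), and Meiob was highest at d16 with 30.8 FPKM. Spermatogonial markers summed to 206, 122, 68.7 and 50.2, led by Uchl1, and 5 of 6 were at least 2-fold lower in adult testis than at d12, beside 23.1% of all genes. The other, Gfra1, had 1.20 FPKM at d12 and 2.41 in adult testis. Round spermatid markers summed to 2.99 FPKM at d12 and 3.89 at d16, where Acrv1, Sun5 and Catsper3 were listed at 0 and Spaca1 had 3.53 FPKM, then 313 FPKM at d24 and 796 in adult testis. Elongating spermatid markers summed to 13.2, 4.45, 2363 and 26392, with Prm2 most abundant. Somatic markers ran the other way or apart. Sertoli cell markers summed to 787, 671, 459 and 489 FPKM, led by Clu, and without Clu to 80.3, 61.6, 38.9 and 32.7, with Amh listed at 0 in adult testis. Those of peritubular myoid cells, led by Acta2, summed to 212, 172, 90.2 and 68.3. Macrophage markers summed to between 22.5 and 27.01, led by Mrc1, and without Mrc1 to 10.02, 12.6, 9.24 and 6.26. Leydig cell markers summed to 103, 66.0, 128 and 552, led by Cyp17a1 at d12 and d16 and by Insl3 later.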

How the data were processed

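Per the labels and the study's methods, strand-specific libraries were made from total RNA of testis pieces and sequenced as read pairs. The authors used TopHat2 2.1.0 on Bowtie 1.1.2 to align the pairs to the mm10 (GRCm38) genome under RefSeq guidance, reporting a single alignment for each. They then ran Cuffdiff (Cufflinks 2.2.1) and deposited its FPKM values, in which reads with several matches were reweighted, sequence bias was corrected and effective length was not. The scaling inside Cuffdiff is not given in the sources used here. The 4 H3K27Ac ChIP samples were not analysed here. No sample column was left out (0).

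Log2 changes used a pseudocount of 0.1 FPKM and genes averaging at least 1 FPKM over the 4 libraries, with python 3.11.15, numpy 2.4.6, pandas 2.3.3, scipy 1.17.1 and matplotlib 3.10.9. To recover fragments, each value was divided by what 1 fragment adds to it. Of values up to 20 fragments, 91.7% to 92.4% lay within 0.05 of a whole number. The limit of 3 fragments at 1 kb was 0.240, 0.240, 0.137 and 0.336 FPKM from d12 to adult. The recovery was tested on simulated data, and so were the fold counts, with planted increases well above 2-fold between d12 and d16. Changes near 2-fold were not simulated, and false calls were not counted. Named were the 10 members, the 5 genes nearest to their median profile, some overlapping genes, and genes of fixed lists (piRNA partners, other Tudor genes, Tdrd3 partners, chromatoid body genes and markers of 9 cell types) by highest level or largest step. A few list genes were named after their values were seen. The members and lists were chosen with earlier results of these data known. Alternatives were a pseudocount of 1 FPKM, no filter or a mean of at least 5 FPKM, rescaling to the same FPKM sum, the same upper quartile or by median ratio, and thresholds of 1.5-fold and 3-fold. Positions and promoter windows are from RefSeq, GRCm38.p6. Not all promoter matches are reported here.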

Additional observations from a re-analysis of the deposited data

How the results depend on the processing

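Of the counts of members past 2-fold, 59 values under the alternatives stayed within 1.5 times the reported count and 7 did not. From d12 to d16, 5 members in place of 8 were higher under the same FPKM sum, beside 11.6% of all genes. Under the same upper quartile it was also 5, beside 11.4%. With a threshold of 3-fold, 4 were past it in place of 8. From d16 to d24, 4 were past 1.5-fold in place of 2. The shares of all genes past 3-fold and 1.5-fold are not given here, so the counts at those thresholds cannot be set against them. Under the same FPKM sum, 1 member was lower from d24 to adult in place of 0, beside 9.83% of all genes. From d12 to adult, 4 were higher under it in place of 8, beside 23.2% of all genes. With d16 in place of d12 as the early library, a setting chosen after seeing the data, 2 were higher in adult testis, beside 30.7% of all genes. No change past 2-fold turned its direction under an alternative. Of the changes of single members and the number highest at d24, 93 values stayed within counting error or the 1.5-fold limit and 70 did not, nearly all of these under the same FPKM sum or upper quartile. With a pseudocount of 1 FPKM the log2 change of Tdrd6 was 4.47 from d12 to d16 and 7.63 from d12 to adult. The pseudocount moved none of these counts beyond that limit. Neither filter setting could move a count, since every member passes both, and their values are among the 59. The median ratio moved none either, but the deposited scaling lay within 1% of it, so it is nearly the same setting. With 1 library per stage no library could be left out within a stage. The adult library, in which 1 fragment was worth the most FPKM, gives the widest relative intervals for levels of equal size. No paired analysis was possible because each stage has 1 library.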

Other observations

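Markers of elongating spermatids, cells not yet formed in the first wave at d12, were higher in the d12 library than in the d16 library. Prm1 had 3.39 FPKM at d12 and 1.20 at d16, Tnp1 2.81 and 0.563, and Tnp2 1.74 and 0.145. Tdrd6, the member that is highest in adult testis with 262 FPKM, had 0.328 FPKM at d12 on 27 fragments. How much of that value comes from the same source as the spermatid fragments was not tested. With d16 as the early library, Tdrd6 was 9.21 times as high in adult testis (8.81 to 9.63) and Tdrd7 3.82 times as high (3.53 to 4.14).

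The promoter windows of the Tudor domain genes differed widely in base composition. Of 14 windows, 12 lay above the median of all 32851 windows in G and C content, which was 52.4%, and 10 above the median ratio of observed to expected CpG, which was 0.373. Tdrd7 held both ends of the CpG range, with 0.219 at its first start and 1.20 at a start within the gene. The table gives 1 value per gene, so which start the testis used was not read from it.

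Around Tdrkh, the gene 1700040D17Rik starts 288 bases away on the opposite strand, and it was not among the symbols of the table. Gm52728 overlaps Tdrd7 on the opposite strand and touches a curated exon of it, and it was not among those symbols either. Rd3l lies inside Tdrd9 on the opposite strand, clear of its exons, with at most 0.359 FPKM.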
